A study of Arabidopsis thaliana with 12 samples.

Results

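Of 33560 annotated Arabidopsis loci, 67 had a mean transcript level at 4 °C of at least 2 times their mean at every other temperature. They were chosen on the deposited CPM (counts per 1000000 counts of a library), summed over the annotated transcripts of a locus. A gene entered when its mean at 4 °C was at least 5 CPM, was at least 2 times its mean at 0, at 10 and at 22 °C, and when all 3 libraries at 4 °C stood above every other library. Those values fix that each gene is highest at 4 °C, so every comparison of these genes with 4 °C is a description without a test. No condition was set on the comparisons among 0, 10 and 22 °C, and these were tested. The levels at these temperatures did serve as ceilings in the choice. How far that shapes the counts of members called was not tested. Of the 67 loci, 62 are nuclear and 5 are chloroplast loci. The nuclear genes lie on all chromosomes, with 19 on chromosome 1, 6 on 2, 10 on 3, 13 on 4 and 14 on 5.

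The plants were Arabidopsis thaliana of the ecotype Columbia 0, a small crucifer that serves as the standard laboratory plant, with no transgene or mutation named. Plantlets 14 days old, raised on sucrose-containing agar at 22 °C under 16 h of light and 8 h of darkness, were held at 0, 4 or 10 °C, and control plants stayed at 22 °C. Each temperature had 3 libraries, each from 10 plantlets of a plate, and the RNA came from the whole plant. The sample labels give 24 h of cold for all 3 low temperatures, whereas the text of the series names 24, 48 and 72 h. If these durations belong to 0, 4 and 10 °C in that order, temperature and time in the cold cannot be told apart. Because whole plants were pooled, more cells of a type and more RNA per cell cannot be told apart either. Libraries held 32870040 to 41683299 estimated counts, and libraries of 1 temperature correlated at 0.989 to 0.994 across genes on the log scale. The 6 root markers summed to 78.6 to 85.1 CPM at 0 °C, 83.8 to 88.5 CPM at 4 °C, 130 to 137 CPM at 10 °C and 119 to 140 CPM at 22 °C, so they were not highest at 4 °C. The 4 seed markers summed to at most 3.03 CPM and the 6 floral markers to at most 4.46 CPM in any library, and both leaf markers were present in all. The part of cell composition in the levels below was not tested.

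Several of the 67 genes act in specialised metabolism and stress protection. Flavonols are yellow phenylpropanoid pigments that absorb ultraviolet light. They are built from phenylalanine by a chain of enzymes that is switched on by the R2R3 MYB factors MYB11, MYB12 and MYB111 and is shared, up to dihydroflavonols, with the red anthocyanins. Galactinol, made from myo-inositol and UDP-galactose, is the galactosyl donor for raffinose, a sugar known to accumulate in cold plants. Tau glutathione transferases couple glutathione to reactive compounds, and abscisic acid is a hormone of cold and drought responses whose level is set partly by its breakdown.

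The regions just upstream of these genes were searched for 10 short motifs on both strands, from 250 bases before to 50 bases after the annotated start of 62 nuclear genes (NCBI RefSeq, TAIR10.1). The letters ACGTG, the core of the G-box and of the abscisic acid response element, were present in 30 of the 62 windows (48.4%), beside 28.2% of 20451 windows of genes tested in these libraries and 26.7% of all 27443 windows. Its palindromic form CACGTG, which contains ACGTG on both strands and so counts as 2 matches, was present in 10 windows (16.1%), beside 8.8% of tested genes. The upstream regions of 7 members that carry the motif follow, chosen after the counts were seen. They were picked from the flavonol, hydroxycinnamate, galactinol, abscisic acid and light-repair genes described later. The motif was not shared by all members of such groups. Among flavonol-related members TT5, F3H, FLS1 and DTX35 also carried it, while ADT5, PAL2, TT7 and MYB4 did not. Among tau glutathione transferases GSTU25 carried it, while GSTU12, GSTU22 and GSTU24 did not. Each printed sequence is the 250 bases before the start, written 5′ to 3′ on the strand of the gene, and the capitals mark ACGTG read on either strand.
UGT84A1, chr4:8850517-8850766 (reverse strand): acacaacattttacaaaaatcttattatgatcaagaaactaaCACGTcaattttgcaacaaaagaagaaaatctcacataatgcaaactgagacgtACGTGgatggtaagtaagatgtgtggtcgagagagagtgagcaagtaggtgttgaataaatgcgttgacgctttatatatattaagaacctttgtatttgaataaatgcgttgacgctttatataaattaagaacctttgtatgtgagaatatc
UGT89C1, chr1:1821895-1822144 (reverse strand): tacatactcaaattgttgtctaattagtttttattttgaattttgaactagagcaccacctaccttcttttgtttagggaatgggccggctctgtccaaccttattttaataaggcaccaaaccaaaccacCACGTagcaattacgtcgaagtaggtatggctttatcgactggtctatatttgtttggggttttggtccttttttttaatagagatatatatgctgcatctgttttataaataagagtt
MYB12, chr2:19476076-19476325 (forward strand): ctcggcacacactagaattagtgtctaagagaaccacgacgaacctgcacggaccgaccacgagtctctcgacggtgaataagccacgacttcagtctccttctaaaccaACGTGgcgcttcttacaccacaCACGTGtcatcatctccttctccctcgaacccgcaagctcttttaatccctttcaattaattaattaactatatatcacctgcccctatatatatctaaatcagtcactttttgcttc
MIPS1, chr4:18472049-18472298 (reverse strand): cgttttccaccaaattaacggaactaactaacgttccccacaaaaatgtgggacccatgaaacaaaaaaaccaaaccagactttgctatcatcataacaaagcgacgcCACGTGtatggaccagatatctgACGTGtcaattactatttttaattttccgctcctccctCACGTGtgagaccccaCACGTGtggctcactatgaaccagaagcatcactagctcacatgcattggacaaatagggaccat
GolS1, chr2:19370479-19370728 (reverse strand): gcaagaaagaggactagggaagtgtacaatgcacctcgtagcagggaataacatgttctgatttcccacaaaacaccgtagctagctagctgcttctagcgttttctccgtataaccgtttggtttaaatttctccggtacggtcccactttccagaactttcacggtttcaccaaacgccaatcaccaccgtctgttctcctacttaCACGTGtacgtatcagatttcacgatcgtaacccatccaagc
CYP707A1, chr4:10521009-10521258 (forward strand): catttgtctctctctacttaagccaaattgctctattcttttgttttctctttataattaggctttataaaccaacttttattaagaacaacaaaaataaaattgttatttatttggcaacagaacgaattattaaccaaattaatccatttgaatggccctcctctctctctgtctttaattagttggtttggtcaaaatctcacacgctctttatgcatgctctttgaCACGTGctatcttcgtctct
PHR1, chr1:4209000-4209249 (reverse strand): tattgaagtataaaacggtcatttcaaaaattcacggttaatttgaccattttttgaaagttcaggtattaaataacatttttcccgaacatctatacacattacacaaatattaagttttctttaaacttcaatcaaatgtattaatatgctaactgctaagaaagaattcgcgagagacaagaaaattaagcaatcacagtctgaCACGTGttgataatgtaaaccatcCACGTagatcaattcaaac
In these 7 regions the MIPS1 window stood out with 7 matches, 3 of the CACGTG palindromes and 1 single ACGTG, all between 142 and 64 bases before the start. The CACGTG of CYP707A1 began 20 bases before its start, that of GolS1 42 bases before and that of PHR1 43 bases before. CCGAC, the core bound by the CBF cold factors, was present in 7 of the 62 windows (11.3%), beside 16.1% of tested genes. AAACCCTA, known from promoters of ribosomal genes, was in 0 of the 62, beside 5.38%. The ACCNACC form of the MYB element was in 7 windows (11.3%, beside 7.8%), TTGAC in 35 (56.5%, beside 51%), TGGGCC in 7 (11.3%, beside 18.1%), GAANNTTC in 6 (9.68%, beside 11.3%), AAAATATCT in 1 (1.61%, beside 3.06%) and GCCGCC in 1 (1.61%, beside 2.57%). These are counts of letters in a fixed window, and no test was made of them.

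Together the 67 genes summed to 4080 CPM at 0 °C, 11824 CPM at 4 °C, 4387 CPM at 10 °C and 1477 CPM at 22 °C. The 4 °C mean was 2.00 to 9.26 times the next highest mean, with a median of 2.39. For 31 genes that ratio was at least 2.5, for 15 at least 3 and for 7 at least 4. Values after ± are the SD of 3 libraries for CPM and the SE of the fit for log2 fold changes. The median coefficient of variation between libraries was 6.49%, 5.22%, 5.98% and 8.51% at 0, 4, 10 and 22 °C. In deposited CPM the genes did not share 1 profile away from 4 °C: the next highest mean was at 0 °C for 31 genes, at 10 °C for 31 and at 22 °C for 5. The lowest mean was at 22 °C for 48, at 0 °C for 15 and at 10 °C for 4. These counts depend on the scale of the libraries. On the scale of the tests, 12 genes with a lower mean CPM at 0 than at 10 °C were called higher at 0 °C. So were 5 with a lower mean CPM at 0 than at 22 °C. Against 22 °C the 4 °C mean was a median of 6.47 times as high, and up to 183 times for PXMT1. That ratio rests on a low level of 0.198 to 0.261 CPM at 22 °C, where 8 members had a mean below 1 CPM. The same rule applied to the other temperatures gave 414 loci for 0 °C, 273 for 10 °C and 672 for 22 °C, so 4 °C had the fewest.

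**Figure D1:**
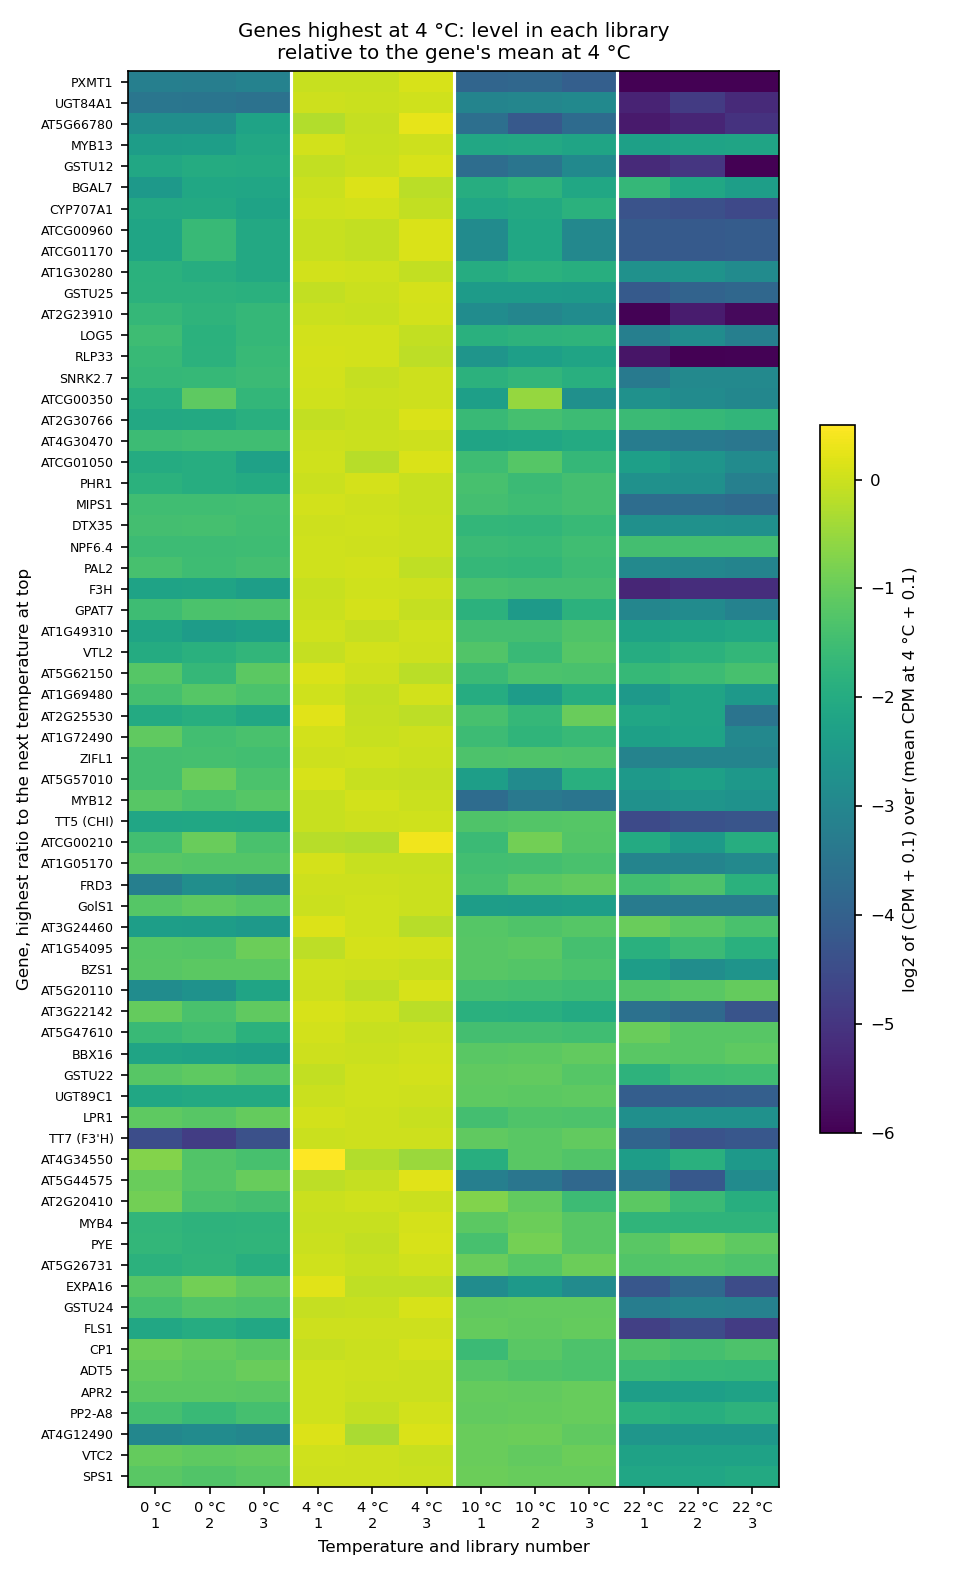
Level of each of the 67 genes (rows, ordered by the ratio of the 4 °C mean to the next highest mean) in the 12 libraries (columns), as log2 of CPM plus 0.1 relative to the mean at 4 °C plus 0.1. The 4 °C columns are brightest by the choice of genes, and the columns for 0, 10 and 22 °C differ from row to row. In deposited CPM, without further scaling, 31 genes were next highest at 0 °C, 31 at 10 °C and 5 at 22 °C.

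The limit of 2 cuts through a continuous range. Just inside it were SPS1 (AT1G78510) with a ratio of 2.00, VTC2 (AT4G26850) with 2.01 and AT4G12490 with 2.02, and just outside were AT1G48100, AT1G65690 and AT1G47530, each with 1.99. The scale also matters. Scaled by TMM factors (edgeR's correction for libraries in which a few genes take many counts), 82 loci would enter and 48 of the 67 would stay. The 19 that would leave had ratios of 1.68 to 1.97 on that scale, and 13 of them were next highest at 0 °C in deposited CPM. They include MYB12, GolS1, GSTU22, ADT5, APR2, VTC2 and SPS1, described below, whereas 4CL3, PAL1 and CHIL of the flavonoid pathway would join.

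PXMT1 (AT1G66700), a methyltransferase of the SABATH family named for paraxanthine methylation, had the highest ratio of 4 °C to the next temperature. It had 4.6, 4.54 and 4.88 CPM at 0 °C, 41.7, 41.8 and 46.4 CPM at 4 °C, 2.84, 2.93 and 2.57 CPM at 10 °C, and 0.198, 0.252 and 0.261 CPM at 22 °C. Every temperature formed its own range, in the order 22, 10, 0 and 4 °C from low to high. PXMT1 was the only member among 13 SABATH genes listed, of which 8 were expressed enough to test. Of the other 7 tested, 2 were higher and 2 lower at 4 than at 0 °C (28.8% and 29.2% of all 21293 genes tested were called so), and 1 was higher and 1 lower at 4 than at 10 °C (29.7% and 30.3% of all). Against 22 °C, 2 were higher and 2 lower at 4 °C (36.3% and 37.6% of all).

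UGT84A1 (AT4G15480), a glucosyltransferase that forms glucose esters of hydroxycinnamic acids such as sinapate, came second. It had 4.69, 4.63 and 4.37 CPM at 0 °C, 51.8, 51.4 and 52.9 CPM at 4 °C, 6.1, 6.31 and 6.84 CPM at 10 °C, and 1.17, 1.69 and 1.28 CPM at 22 °C. The 4 °C mean was 8.11 times the 10 °C mean and 37.7 times the 22 °C mean. AT5G66780, annotated as a late embryogenesis abundant protein, a class known to protect cells against drying, followed with 0.771, 0.774 and 1.19 CPM at 0 °C, 4.95, 5.67 and 7.13 CPM at 4 °C, 0.386, 0.233 and 0.357 CPM at 10 °C, and 0.0299, 0.0496 and 0.0821 CPM at 22 °C. Its level rests on few counts outside 4 °C, since 3 counts correspond to 0.072 to 0.0913 CPM in these libraries. BGAL7 (AT5G20710), a beta-galactosidase, had a mean of 1.13 ± 0.159 CPM at 0 °C, 5.76 ± 0.665 CPM at 4 °C, 1.42 ± 0.182 CPM at 10 °C and 1.34 ± 0.353 CPM at 22 °C (SD, n = 3 each). Its 22 °C libraries overlapped those at 0 and at 10 °C, while all 3 at 0 °C lay below those at 10 °C in CPM, and none of the 3 comparisons among 0, 10 and 22 °C called it.

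The largest functional group ran from phenylalanine to glycosylated flavonols. Its members were ADT5, which makes phenylalanine, PAL2, which opens the phenylpropanoid pathway, TT5 (chalcone isomerase), F3H (flavanone 3-hydroxylase), TT7 (flavonoid 3′-hydroxylase), FLS1 (flavonol synthase) and UGT89C1 (AT1G06000), which adds rhamnose to flavonols. DTX35, a transporter of the MATE family that acts on flavonoids, and the regulators MYB12 and MYB4 belong beside them. Of 33 flavonoid and phenylpropanoid genes listed, 7 were members: PAL2, TT5, F3H, TT7, FLS1, UGT89C1 and MYB12. ADT5, DTX35 and MYB4 were grouped with them from their known roles, after the values were seen.

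PAL2 (AT3G53260) had 638, 586 and 616 CPM at 0 °C, 1715, 1743 and 1546 CPM at 4 °C, 527, 515 and 568 CPM at 10 °C, and 217, 208 and 200.5 CPM at 22 °C. F3H (AT3G51240) had 198, 202 and 183 CPM at 0 °C, 907, 961 and 936 CPM at 4 °C, 356, 347 and 345 CPM at 10 °C, and 23.7, 26.3 and 26.5 CPM at 22 °C. FLS1 (AT5G08640) had 116, 125 and 116 CPM at 0 °C, 493, 498 and 495 CPM at 4 °C, 240.4, 232 and 240.1 CPM at 10 °C, and 18, 21.8 and 17.2 CPM at 22 °C. The groups did not overlap for any of these genes. F3H and FLS1 ran in the order 22, 0, 10 and 4 °C from low to high, whereas PAL2 was higher at 0 than at 10 °C.

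TT5 (AT3G55120) and UGT89C1 followed the order of F3H and FLS1. TT5 had 105, 106 and 104 CPM at 0 °C, 447, 469 and 478 CPM at 4 °C, 191, 197 and 199.9 CPM at 10 °C, and 19.8, 22.5 and 23.8 CPM at 22 °C. UGT89C1 averaged 119 ± 2.9 CPM at 0 °C, 501 ± 8.51 CPM at 4 °C, 231 ± 3.72 CPM at 10 °C and 30.2 ± 0.246 CPM at 22 °C. The 4 enzymes TT5, F3H, FLS1 and UGT89C1 therefore stood at 2.09 to 2.68 times their 10 °C level and 16.6 to 36.6 times their 22 °C level. After TMM scaling the edgeR quasi-likelihood test called them lower at 0 than at 10 °C by a small step. Their log2 fold changes were -0.30 ± 0.054, -0.24 ± 0.049, -0.39 ± 0.062 and -0.36 ± 0.031 (SE), with edgeR adjusted p of 0.000261, 0.000721, 9.79e-05 and 4.7e-07 in that order. With total counts alone those of TT5, F3H and UGT89C1 were -0.87, -0.81 and -0.93, so the size of the step depends on the scale.

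TT7 (AT5G07990), which adds the second hydroxyl of the flavonoid B ring and so turns kaempferol precursors into quercetin precursors, behaved differently at 0 °C. It had 3.62, 2.78 and 3.83 CPM at 0 °C, 80.6, 82 and 81.6 CPM at 4 °C, 38.1, 36.2 and 38.9 CPM at 10 °C, and 5.3, 3.94 and 4.2 CPM at 22 °C. The 4 °C mean was 23.9 times the 0 °C mean, the largest such ratio among the 67. TT7 rose at 10 °C against 22 °C by 2.90 ± 0.099 on the log2 scale (edgeR, adjusted p = 6.57e-11) and was the member with the largest fall at 0 against 10 °C (-2.87 ± 0.1, adjusted p = 7.38e-11). Between 0 and 22 °C its log2 fold change was 0.03 ± 0.12 (adjusted p = 0.805).

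MYB12 (AT2G47460), the activator of flavonol enzymes, had 14.5, 12.8 and 14.1 CPM at 0 °C, 31.9, 34.2 and 32.7 CPM at 4 °C, 2.42, 3.09 and 2.85 CPM at 10 °C, and 4.96, 5.28 and 5.03 CPM at 22 °C. It was thus lowest at 10 °C, where its enzymes TT5, F3H, FLS1 and UGT89C1 were second highest. It was higher at 0 than at 10 °C by 2.91 ± 0.084 (edgeR, adjusted p = 9.29e-12), higher at 0 than at 22 °C by 1.86 ± 0.078 (adjusted p = 2.91e-10) and lower at 10 than at 22 °C by -1.05 ± 0.088 (adjusted p = 3.82e-07), all on the log2 scale. MYB4 (AT4G38620), a repressor of phenylpropanoid genes, averaged 14.3 ± 0.327 CPM at 0 °C, 48.9 ± 2.81 CPM at 4 °C, 23.1 ± 2 CPM at 10 °C and 14.4 ± 0.2 CPM at 22 °C. MYB13 (AT1G06180), an R2R3 MYB factor as well, averaged 5.4 ± 0.596 CPM at 0 °C, 26.5 ± 0.878 CPM at 4 °C, 6.03 ± 0.273 CPM at 10 °C and 5.53 ± 0.225 CPM at 22 °C. After TMM scaling MYB13 was higher at 0 than at 22 °C by 0.39 ± 0.084 (edgeR, adjusted p = 0.00106) and higher at 0 than at 10 °C by 0.44 ± 0.084 (adjusted p = 0.000455), although its mean CPM was lowest at 0 °C. It was not called between 10 and 22 °C (-0.05 ± 0.084, adjusted p = 0.622).

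ADT5 (AT5G22630) had a smaller range, with 62 ± 2.95 CPM at 0 °C, 128 ± 2.16 CPM at 4 °C, 52.8 ± 2.86 CPM at 10 °C and 41.4 ± 1.29 CPM at 22 °C (SD, n = 3 each). DTX35 (AT4G25640) averaged 156 ± 3.23 CPM at 0 °C, 429 ± 7.46 CPM at 4 °C, 133 ± 5.4 CPM at 10 °C and 64.7 ± 0.976 CPM at 22 °C. ADT5, PAL2, DTX35 and MYB12 were higher at 0 than at 10 °C, by 0.83, 0.79, 0.83 and 2.91 on the log2 scale, whereas TT5, F3H, FLS1, UGT89C1 and TT7 were lower there. The test did not call MYB4 between 0 and 10 °C (-0.09 ± 0.066, adjusted p = 0.266).

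**Figure D2:**
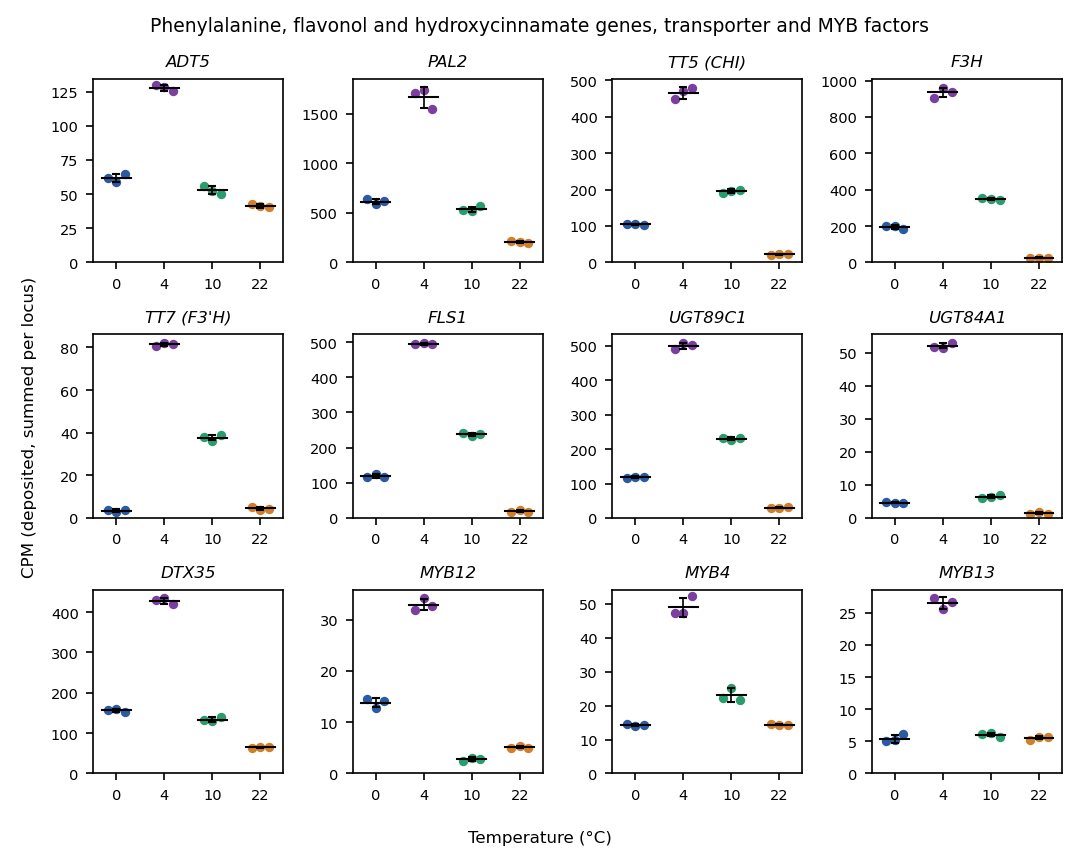
CPM of 12 genes of phenylalanine, flavonol and hydroxycinnamate metabolism and of MYB factors in each library (points) at 0, 4, 10 and 22 °C, with the mean and SD of 3 libraries (bars). TT5, F3H, TT7, FLS1 and UGT89C1 were next highest at 10 °C, ADT5, PAL2, DTX35 and MYB12 at 0 °C, and TT7 had no more than 3.83 CPM in any 0 °C library against at least 80.6 CPM at 4 °C.

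Among the 26 listed flavonoid and phenylpropanoid genes that are not members, 19 were higher and 5 lower at 4 than at 0 °C by edgeR, 10 higher and 12 lower at 4 than at 10 °C, and 21 higher and 4 lower at 4 than at 22 °C. Of all genes tested, 28.8% and 29.2%, 29.7% and 30.3%, and 36.3% and 37.6% were called higher and lower in these comparisons. Of the 30 listed genes whose mean reached 5 CPM at some temperature, 14 had their highest mean at 4 °C, beside 14.3% of all 15507 such loci. The 14 include the 7 members, which are highest there by the choice of genes. CHS (chalcone synthase) missed the 2-fold limit with a mean of 478 ± 5.04 CPM at 0 °C, 2361 ± 46.8 CPM at 4 °C, 1549 ± 62.5 CPM at 10 °C and 126 ± 4.29 CPM at 22 °C. PAL1, 4CL3 and CHIL, which act with PAL2, ahead of CHS and with TT5, were also highest at 4 °C, with ratios to the next temperature of 1.67, 1.92 and 1.78. HY5, a light-signalling bZIP factor known to bind ACGTG elements, averaged 20.7 ± 0.255 CPM at 0 °C, 36.3 ± 3.25 CPM at 4 °C, 12 ± 0.546 CPM at 10 °C and 13.8 ± 0.534 CPM at 22 °C.

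The genes that lead on to anthocyanins were not among the 67. DFR (dihydroflavonol reductase) averaged 3.81 ± 0.754 CPM at 0 °C, 3.25 ± 0.303 CPM at 4 °C, 52.2 ± 3.35 CPM at 10 °C and 2.78 ± 0.337 CPM at 22 °C, and was lower at 4 than at 10 °C by -3.69 ± 0.126 on the log2 scale (edgeR, adjusted p = 1.2e-10). LDOX, the next enzyme, was lower at 4 than at 10 °C by -3.09 ± 0.135 (adjusted p = 1.26e-09), and PAP1, the MYB activator of this branch, by -1.66 ± 0.131 (adjusted p = 3.09e-07). UGT75C1, UGT79B1, AT5MAT, PAP2 and TT8 were likewise highest at 10 °C. TT19, a glutathione transferase needed to store anthocyanins, was an exception with 33.1 ± 2.42 CPM at 4 °C and 32.9 ± 1.55 CPM at 10 °C, and was called higher at 4 than at 10 °C after TMM scaling (0.32 ± 0.0755, edgeR adjusted p = 0.00307). FLS1 and DFR draw on the same dihydroflavonols, and in these libraries FLS1 was highest at 4 °C and DFR at 10 °C. MYB111, a flavonol activator related to MYB12, was highest at 0 °C instead, with 20.9 ± 1.19 CPM there, 12.3 ± 0.737 CPM at 4 °C, 4.02 ± 0.462 CPM at 10 °C and 0.793 ± 0.225 CPM at 22 °C.

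Nothing used here states that counting took account of strand, and 16 of the 62 nuclear genes share bases with a gene annotated on the opposite strand. For 6 genes such an overlap covers at least 25% of the span. F3H is overlapped over 94.5% by AT3G51238, which was listed at 16.5 CPM at 0 °C, 21.8 CPM at 4 °C, 2.14 CPM at 10 °C and 0.327 CPM at 22 °C. UGT89C1 is overlapped over 99.6% by AT1G06002, which had at most 0.914 CPM on average at any temperature. If counting ignored strand, reads of the gene and of its antisense partner cannot be told apart where these pairs overlap.

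MIPS1 (AT4G39800), which makes the myo-inositol backbone, had the highest CPM of the 67. It had 711, 705 and 722 CPM at 0 °C, 2048, 1979 and 1932 CPM at 4 °C, 726, 698 and 732 CPM at 10 °C, and 155, 157 and 148 CPM at 22 °C. The 0 and 10 °C libraries overlapped in CPM, while after TMM scaling MIPS1 was higher at 0 than at 10 °C by 0.59 ± 0.028 on the log2 scale (edgeR, adjusted p = 1.29e-09). GolS1 (AT2G47180), which joins myo-inositol and galactose into galactinol, had 124, 134 and 123 CPM at 0 °C, 286, 293 and 285 CPM at 4 °C, 55.1, 54.1 and 55.7 CPM at 10 °C, and 29.1, 29.3 and 29.1 CPM at 22 °C. Its groups were all apart, and it was higher at 0 than at 10 °C by 1.81 ± 0.04 (adjusted p = 7.31e-13).

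Of 24 tau glutathione transferases listed, 4 were members: GSTU12, GSTU22, GSTU24 and GSTU25. GSTU24 (AT1G17170) and GSTU25 (AT1G17180) are next to each other on the same strand of chromosome 1, the only adjacent pair among the 67, and reads of such similar genes can be shared between them. GSTU25 had 60.9, 61 and 58.2 CPM at 0 °C, 202, 213 and 228 CPM at 4 °C, 39.6, 39.3 and 39.3 CPM at 10 °C, and 12, 13.9 and 15 CPM at 22 °C. GSTU24 had 99, 109.9 and 105 CPM at 0 °C, 249, 257 and 283 CPM at 4 °C, 124, 126 and 127 CPM at 10 °C, and 27.6, 30.8 and 29.5 CPM at 22 °C. GSTU25 was thus higher at 0 than at 10 °C in every library, and GSTU24 the reverse in CPM. After TMM scaling the difference of GSTU24 between 0 and 10 °C was positive (log2 0.34 ± 0.058, edgeR adjusted p = 0.00021), and with total counts alone it was -0.23, so its direction depends on the scale. GSTU12 (AT1G69920) averaged 1.62 ± 0.0565 CPM at 0 °C, 6.98 ± 0.459 CPM at 4 °C, 0.607 ± 0.2 CPM at 10 °C and 0.0712 ± 0.064 CPM at 22 °C, where 1 library held 0 counts. GSTU22 (AT1G78340) had 20.9, 22.1 and 20.1 CPM at 0 °C, 45.2, 49 and 49.5 CPM at 4 °C, 22.6, 22.8 and 20.5 CPM at 10 °C, and 13.7, 16.6 and 16.9 CPM at 22 °C. Among the other 20 tau genes, 8 were higher and 6 lower at 4 than at 0 °C, 10 higher and 5 lower at 4 than at 10 °C, and 11 higher and 6 lower at 4 than at 22 °C. The shares of all genes tested were 28.8% and 29.2%, 29.7% and 30.3%, and 36.3% and 37.6%. Of the tau genes listed, 20 reached a mean of 5 CPM at some temperature, and 7 of these, the 4 members included, were highest at 4 °C, beside 14.3% of all such loci. The 4 members are highest there by the choice of genes, which raises this count.

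CYP707A1 (AT4G19230), the abscisic acid 8′-hydroxylase that breaks the hormone down, had 14.1, 14.6 and 12.8 CPM at 0 °C, 61, 62.7 and 56.6 CPM at 4 °C, 13.5, 14.5 and 16.7 CPM at 10 °C, and 2.9, 2.73 and 2.45 CPM at 22 °C. Its 4 °C mean was 4.03 times the 10 °C mean and 22.3 times the 22 °C mean, and the 0 and 10 °C libraries overlapped. SNRK2.7 (AT4G40010), a kinase of the family that acts in abscisic acid and osmotic signalling, averaged 9.41 ± 0.314 CPM at 0 °C, 29.4 ± 1.28 CPM at 4 °C, 8.29 ± 0.515 CPM at 10 °C and 3.41 ± 0.547 CPM at 22 °C. LOG5 (AT4G35190), of the LONELY GUY family that activates cytokinins, averaged 3.28 ± 0.366, 10.7 ± 0.649, 2.95 ± 0.11 and 1.19 ± 0.194 CPM at 0, 4, 10 and 22 °C. All of SNRK2.7, LOG5 and CYP707A1 rose against 22 °C at both 0 and 10 °C, by 1.88, 1.88 and 2.78 on the log2 scale at 0 °C and by 1.10, 1.12 and 2.29 at 10 °C (edgeR, largest adjusted p = 7.05e-06).

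VTC2 (AT4G26850), GDP-L-galactose phosphorylase and the controlling step of ascorbate synthesis, had 536, 505 and 525 CPM at 0 °C, 1109, 1106 and 1065 CPM at 4 °C, 548, 525 and 558 CPM at 10 °C, and 231, 230 and 229 CPM at 22 °C. APR2 (AT1G62180), the main adenylylsulphate reductase of sulphate assimilation, had 224, 224 and 219 CPM at 0 °C, 501, 489 and 487 CPM at 4 °C, 238, 236 and 244 CPM at 10 °C, and 96, 98.1 and 104 CPM at 22 °C. The 0 and 10 °C libraries of VTC2 overlapped and those of APR2 lay slightly lower at 0 °C, while after TMM scaling both were higher at 0 than at 10 °C, by 0.54 ± 0.028 and 0.49 ± 0.035 (edgeR, adjusted p = 2.55e-09 and 6.9e-08). SPS1, which makes the prenyl side chain of quinones, averaged 92.8 ± 4.05 CPM at 0 °C, 212 ± 2.78 CPM at 4 °C, 106 ± 2.27 CPM at 10 °C and 48.7 ± 2.35 CPM at 22 °C. PHR1 (AT1G12370), a photolyase that repairs ultraviolet damage in DNA, averaged 13.2 ± 0.856 CPM at 0 °C, 51 ± 2.37 CPM at 4 °C, 18.3 ± 1.07 CPM at 10 °C and 6.92 ± 1.2 CPM at 22 °C.

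FRD3, PYE, VTL2 and LPR1 act on iron or its regulation, a set picked after the values were seen and not a full account of such genes. FRD3 (AT3G08040), a citrate exporter needed to move iron through the xylem, had 3.27, 4.41 and 3.91 CPM at 0 °C, 31.1, 31 and 30.4 CPM at 4 °C, 11.7, 14 and 14.8 CPM at 10 °C, and 11.1, 12.3 and 8.45 CPM at 22 °C. FRD3 fell at 0 °C against 22 °C by 1.04 ± 0.15 on the log2 scale (edgeR, adjusted p = 3.47e-05), and the test did not call it at 10 against 22 °C (0.16 ± 0.13, adjusted p = 0.298). PYE (AT3G47640), a bHLH regulator of the iron-deficiency response, averaged 4.4 ± 0.119 CPM at 0 °C, 14.9 ± 1.11 CPM at 4 °C, 6.8 ± 1.33 CPM at 10 °C and 7.05 ± 0.586 CPM at 22 °C and was called in none of the 3 comparisons. VTL2 (AT1G76800), of the vacuolar iron transporter family, averaged 6.13 ± 0.592, 22.6 ± 1.07, 8.79 ± 1.18 and 6.3 ± 0.662 CPM at 0, 4, 10 and 22 °C, and was higher at 10 than at 22 °C by 0.30 ± 0.11 (edgeR, adjusted p = 0.0354). LPR1 (AT1G23010), a ferroxidase known from the root response to low phosphate, averaged 20 ± 1.12 CPM at 0 °C, 43.2 ± 1.81 CPM at 4 °C, 16.9 ± 0.955 CPM at 10 °C and 6.39 ± 0.135 CPM at 22 °C.

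**Figure D3:**
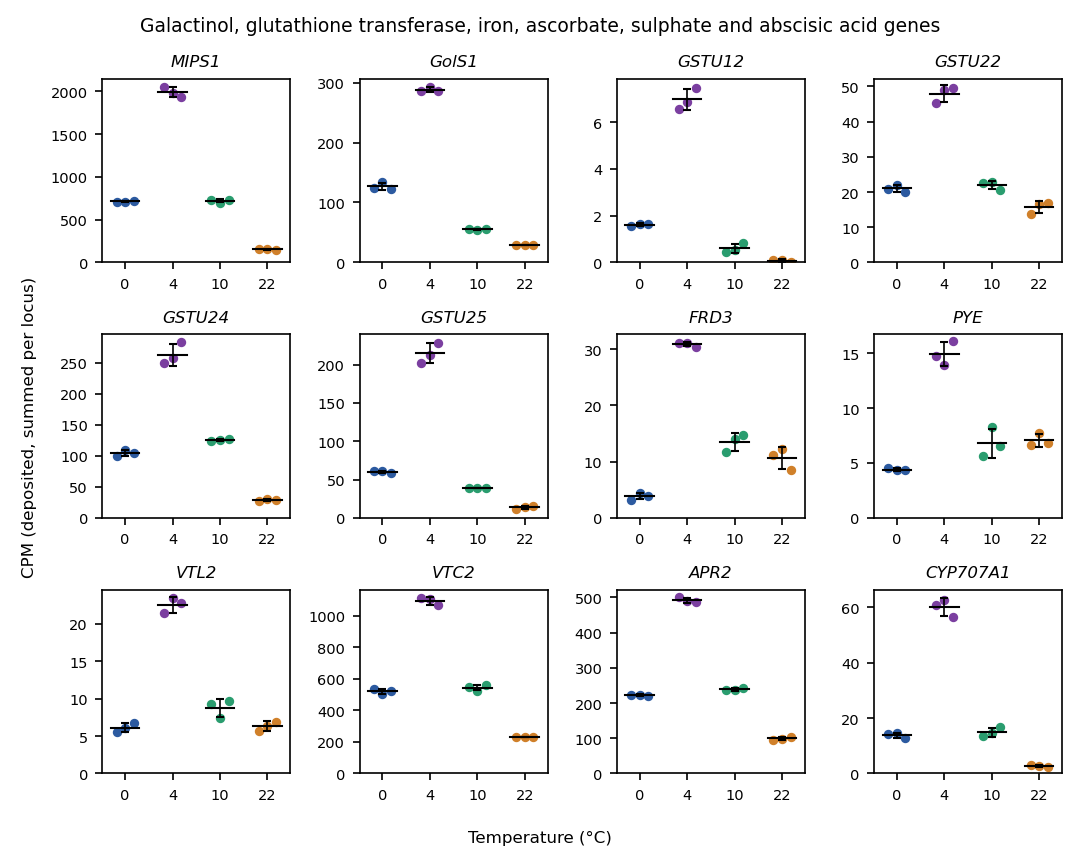
CPM of 12 genes of galactinol, glutathione transfer, iron, ascorbate, sulphate and abscisic acid metabolism in each library (points) at 0, 4, 10 and 22 °C, with the mean and SD of 3 libraries (bars). GSTU12 and GolS1 were next highest at 0 °C, the 0 and 10 °C libraries overlapped for MIPS1 and CYP707A1, and FRD3 had at most 4.41 CPM at 0 °C against at least 30.4 CPM at 4 °C.

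Further members had large ratios to 22 °C. AT2G23910, a protein with an NAD(P)-binding Rossmann fold, had 40.5, 37.9 and 40.4 CPM at 0 °C, 128, 126 and 135 CPM at 4 °C, 17.9, 16 and 18 CPM at 10 °C, and 1.98, 2.75 and 2.18 CPM at 22 °C. AT4G30470, annotated with the same fold, had a like order with 45.2 ± 0.849 CPM at 0 °C, 129 ± 1.17 CPM at 4 °C, 29.4 ± 1.7 CPM at 10 °C and 12.6 ± 0.73 CPM at 22 °C. In both, every temperature stood apart, in the order 22, 10, 0 and 4 °C from low to high. RLP33 (AT3G05660), a receptor-like protein, averaged 19.5 ± 1.55 CPM at 0 °C, 62.9 ± 5.08 CPM at 4 °C, 12.1 ± 1.74 CPM at 10 °C and 0.922 ± 0.236 CPM at 22 °C. AT3G22142, of the lipid-transfer protein class, averaged 233 ± 28.3 CPM at 0 °C, 519 ± 52.3 CPM at 4 °C, 136 ± 7.73 CPM at 10 °C and 35.8 ± 8.98 CPM at 22 °C, and its whole span lies under a gene annotated on the opposite strand. As with the genes before it, 0 °C was its next highest temperature. EXPA16 (AT3G55500), an expansin that loosens cell walls, averaged 3.82 ± 0.422, 8.03 ± 1.11, 1.13 ± 0.193 and 0.362 ± 0.12 CPM at 0, 4, 10 and 22 °C. AT1G30280, annotated with a DnaJ chaperone domain, averaged 7.53 ± 0.647 CPM at 0 °C, 29.6 ± 1.66 CPM at 4 °C, 7.78 ± 0.319 CPM at 10 °C and 4.34 ± 0.312 CPM at 22 °C.

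At 0 °C the genes stood mostly above 22 °C. By the edgeR quasi-likelihood test with Benjamini-Hochberg adjustment over 21293 genes, 56 of the 67 were higher at 0 than at 22 °C (83.6%) and 4 were lower, beside 35.5% and 38.8% of all genes tested. The median log2 fold change of the 67 was 1.63, beside -0.07 for all genes. The choice capped the 22 °C level of every member, and the part of this cap in the counts was not tested. The largest rises were those of RLP33 (4.84 ± 0.16, adjusted p = 2.26e-11), GSTU12 (4.81 ± 0.41, adjusted p = 3.13e-07), PXMT1 (4.68 ± 0.12, adjusted p = 2.91e-12) and AT2G23910 (4.51 ± 0.088, adjusted p = 1.79e-13). The 4 genes that fell were FRD3, AT5G20110, AT3G24460 and BBX16, by 1.04, 0.99, 0.82 and 0.68, and in each all 3 libraries at 0 °C were below those at 22 °C in CPM. The TMM scale raises 0 over 22 °C, so genes called lower on it lie lower still in CPM. The share of all genes with libraries set apart like this was not counted. BBX16 (AT1G73870) is a B-box zinc finger protein, with 17.8, 17.2 and 16.7 CPM at 0 °C, 82.1, 80.7 and 84.4 CPM at 4 °C, 36.7, 37.1 and 39.2 CPM at 10 °C, and 37, 35.9 and 38.2 CPM at 22 °C. The 7 that were not called were BGAL7, AT2G30766, AT5G47610, TT7, PYE, AT5G26731 and AT4G12490. The scale of the libraries bears on these counts: with total counts alone the median of all genes shifted to -0.48, and 48 members were higher and 11 lower, and with upper quartile factors 52 were higher and 7 lower. The called members MYB13, AT3G21670, AT1G49310, VTL2 and MYB4 (5 genes) were higher at 0 °C after TMM scaling while their mean CPM was lower there.

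At 10 °C, 48 genes were higher than at 22 °C (71.6%) and 6 lower, beside 32.4% and 32.3% of all genes tested by edgeR. The median log2 fold change was 0.985, beside -0.01 for all genes. F3H (3.60 ± 0.056, adjusted p = 1.03e-13), RLP33 (3.55 ± 0.16, adjusted p = 1.13e-09), FLS1 (3.46 ± 0.071, adjusted p = 7.48e-13) and PXMT1 (3.34 ± 0.13, adjusted p = 3.21e-10) had the largest rises. The 6 that fell were MYB12, AT5G47610, AT5G20110, AT3G21670, AT3G24460 and BBX16, by 1.05, 0.52, 0.50, 0.29, 0.26 and 0.15. AT3G21670 belongs to the major facilitator superfamily and is also known as the nitrate transporter family member NPF6.4. It had 129, 131 and 132 CPM at 0 °C, 387, 383 and 372 CPM at 4 °C, 127, 124 and 135 CPM at 10 °C, and 140, 139 and 139 CPM at 22 °C, nearly level except at 4 °C. BBX16 was lower at 10 °C after TMM scaling while its mean CPM was slightly higher. This comparison and that of 0 with 22 °C share the 22 °C libraries, which the choice also used as a ceiling.

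Between 0 and 10 °C the genes divided. At 0 °C 43 were higher than at 10 °C (64.2%) and 11 lower, beside 33.9% and 36.6% of all genes tested, with a median log2 fold change of 0.557 beside -0.06 for all genes. The choice set the same ceiling on 0 and 10 °C in CPM, and there 31 members were next highest at each. The test used the TMM scale, with factors of 0.792 to 0.812 at 0 °C and 1.19 at 10 °C, which raise 0 over 10 °C. The part of the choice and of this change of scale in the counts was not tested. With total counts alone, which moved the median of all genes to -0.62, only 23 were higher and 25 lower, so the balance between both directions depends on the scaling. In deposited CPM, 24 of the 43 had all 3 libraries at 0 °C above those at 10 °C, and all 11 that were lower had all 3 below. Because the TMM scale raises 0 over 10 °C, genes called lower on it lie lower still in CPM. The share of all genes with libraries set apart in this way was not counted. Of the 43, 12 had a lower mean CPM at 0 °C: MYB13, CYP707A1, AT1G30280, MIPS1, ZIFL1, ATCG00210, AT5G47610, GSTU22, GSTU24, APR2, VTC2 and SPS1. The largest rises were those of AT5G44575 (3.20 ± 0.31, adjusted p = 1.14e-06), MYB12 (2.91), EXPA16 (2.35 ± 0.19, adjusted p = 2.11e-07) and AT5G66780 (2.05 ± 0.29, adjusted p = 3.83e-05). After TT7, the largest falls were those of AT4G12490, a lipid-transfer type protein (-1.40 ± 0.13, adjusted p = 9.7e-07), FRD3 (-1.20 ± 0.14, adjusted p = 9.52e-06) and AT3G24460 (-0.57 ± 0.1, adjusted p = 0.000325). The other 7 that were lower were F3H, TT5, FLS1, UGT89C1, AT1G49310, AT5G20110 and BBX16. With TT7, 5 of the 11 were thus flavonoid enzymes, whereas ADT5 and PAL2 at the head of the same group were higher at 0 °C. Of the 26 listed flavonoid and phenylpropanoid genes that are not members, 21 were lower and 3 higher at 0 than at 10 °C. The shares of all genes tested were 36.6% and 33.9%. The lower level at 0 °C was therefore not particular to the members.

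**Figure D4:**
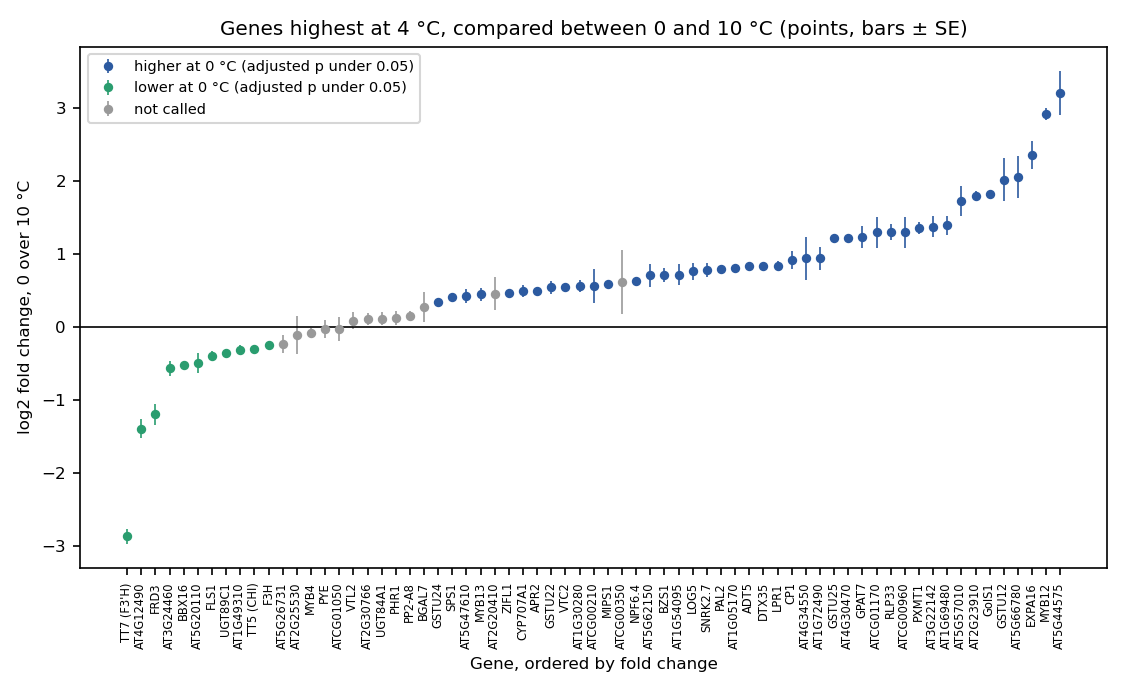
Log2 fold change of each of the 67 genes at 0 °C over 10 °C (points, TMM-scaled edgeR fit, bars show the SE), ordered by size and coloured by call at an adjusted p under 0.05. TT7 lies lowest at -2.87 and AT5G44575 highest at 3.20, with 43 genes called higher at 0 °C, 11 lower and 13 not called.

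The 5 chloroplast loci were ATCG00960, ATCG01170, ATCG00350, ATCG01050 and ATCG00210, which the reference used here does not name under these IDs. ATCG00960 and ATCG01170 carry identical values in every library and are counted as 2 of the 67, or as 1 of 66. Each was listed at 3.89, 5.78 and 4.12 CPM at 0 °C, 17.3, 16.7 and 19.6 CPM at 4 °C, 2.37, 3.97 and 2.19 CPM at 10 °C, and 0.897, 0.905 and 0.948 CPM at 22 °C. ATCG00350 had 12.3, 21.5 and 14.2 CPM at 0 °C, 47.4, 45.2 and 46.1 CPM at 4 °C, 9.12, 31.8 and 6.81 CPM at 10 °C, and 7.02, 6.3 and 5.72 CPM at 22 °C. Its second libraries at 0 and 10 °C were the highest of their groups. All chloroplast loci together also peaked in the second library at 10 °C, with 11260 CPM there against 7818 and 8261 in the other two, and in the second at 0 °C, with 8998 against 7398 and 7616. The summed chloroplast level averaged 8004 ± 867 CPM at 0 °C, 9766 ± 354 CPM at 4 °C, 9114 ± 1875 CPM at 10 °C and 7954 ± 153 CPM at 22 °C. Of 67 chloroplast loci with at least 5 CPM at some temperature, 32 were highest at 4 °C, 19 at 10 °C and 16 at 22 °C, beside 14.3%, 39.8% and 33.9% of all such loci. The part of the chloroplast total in the levels of the single loci was not tested.

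Of the 67 genes, 13 had more than 1 annotated transcript (19.4%, beside 17.52% of all loci), and in none of the 13 did the leading transcript differ between temperatures. The second transcript of F3H held 64.9 ± 6.07%, 70.7 ± 2.12%, 63.1 ± 4.44% and 52.8 ± 12.9% of the gene's CPM at 0, 4, 10 and 22 °C (SD over 3 libraries). Estimated counts split reads between transcripts by a model, which adds to the error of such shares.

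Several gene groups known for cold held no member. Members made up 0.2% of all annotated loci, so 0 in a list of this size does not set a group apart. Counts of genes highest at 4 °C are taken here over genes whose mean reached 5 CPM at some temperature, and 14.3% of all such loci were highest at 4 °C. Of 21 CBF factors and cold-regulated genes 0 were members, and 10 of the 20 at that level were highest at 4 °C. Of 26 ribosome biogenesis genes 0 were members, and 12 of the 25 at that level were highest at 4 °C. By edgeR, all 21 CBF and cold-regulated genes were higher at 4 than at 10 °C (29.7% of all genes tested were), and 3 were higher and 14 lower at 4 than at 0 °C (28.8% and 29.2% of all). The ribosome biogenesis genes had 19 higher and 4 lower at 4 than at 0 °C, and 16 higher and 5 lower at 4 than at 10 °C (29.7% and 30.3% of all). The lists of heat shock (21 genes), glucosinolate (22), circadian clock (22), jasmonate (23), salicylate (10) and light-stress and UV-B genes (9) also held 0 members. Highest at 4 °C were 2 of 15 heat shock, 1 of 21 glucosinolate, 7 of 22 clock, 1 of 19 jasmonate, 1 of 9 salicylate and 4 of 9 light-stress genes at that level.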

How the data were processed

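Whole-plant RNA of 12 libraries (4 temperatures, 3 each) was read as pairs of 250 bases. Per the submitters' processing notes the tools were HISAT2 2.2.0, kallisto 0.42.4 and edgeR and the build TAIR10, with no order given. The authors deposited estimated counts and CPM per transcript, and 6 further columns of each table match no sample and were not used. Assembled transcripts without an annotated locus held 9.79% to 12.2% of counts. CPM was summed per annotated locus and is printed without further scaling. For tests, estimated counts were summed per locus, rounded and filtered (filterByExpr, 21293 genes) and fitted with edgeR 4.0.16 (TMM, quasi-likelihood, R 4.3.3) over all 12 libraries, with Benjamini-Hochberg adjustment and a threshold of 0.05. Fold changes are on this TMM scale. Their SE was taken as the absolute log2 fold change over the square root of F and is approximate. P-values measure the spread between these plates. DESeq2 1.42.0 was an alternative.

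The members and gene lists were chosen with earlier results of these data known. Genes named are the 12 highest ratios, the 10 highest levels, list members, the 4 largest rises and falls per comparison, the 3 nearest the limit on each side, families of 3 or more, neighbours and members with a switching transcript. ADT5, MYB4, GolS1, SNRK2.7, LOG5, PHR1, PYE, VTL2, LPR1, AT4G30470 and genes given only as not called or as CPM exceptions were added after values were seen. Gene names and start sites came from NCBI RefSeq (TAIR10.1), in which 32818 loci were found. Coordinates refer to that assembly, and the tables carry none. UGT89C1 is AT1G06000 in the list used.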

Additional observations from a re-analysis of the deposited data

Results flagged for a closer look

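Assembled loci, which carry no Arabidopsis locus ID and entered no comparison above, held signal of the same kind. Of 7823 assembled loci, 22 met the same rule for 4 °C (0.281%, beside 0.2% of annotated loci). Their ratios of the 4 °C mean to the next highest mean had a median of 2.53 and reached 7.16, and the highest 4 °C mean among them was 66.4 CPM. The tables do not pair these loci with annotated genes, and no test was made of them.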

How the results depend on the processing

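The number of genes that met the rule was 82 with TMM-scaled CPM (48 shared), 73 with CPM relative to counts on annotated loci alone, 252 with a fold limit of 1.5, 15 with a limit of 3, 106 with a minimum of 1 CPM, 56 with 10 CPM and 69 without the demand on single libraries. Leaving out each library in turn gave 65 to 73.

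Between 0 and 22 °C, the number of members lower at 0 °C was 4, with 11 under total counts alone and 7 under upper quartile factors. Between 0 and 10 °C, total counts alone gave 23 members higher at 0 °C in place of 43 and 25 lower in place of 11. By their construction these scalings shift all genes. With total counts alone the share of higher among all called genes was 27.6% for 0 against 22 °C (47.8% with TMM), 61.6% for 10 against 22 °C (50.1%) and 19.9% for 0 against 10 °C (48.1%), and with upper quartile factors 35.4%, 48.6% and 35.2%. Their medians over all genes moved to -0.48, 0.14 and -0.62, and to -0.30, -0.03 and -0.27. DESeq2 and its size factors, the fit of only the groups compared and both filters on low counts kept all 6 counts within 1.5 times; the filter at a mean of 5 CPM tested 59 of the 67.

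Leaving out a library gave 55 to 56 higher and 4 to 4 lower at 0 against 22 °C, 45 to 47 higher and 5 to 6 lower at 10 against 22 °C, and 42 to 44 higher and 11 to 11 lower at 0 against 10 °C. Of 708 repeats of 51 results on single genes, 705 kept direction and call. GSTU22 and GSTU24 turned negative between 0 and 10 °C under total counts alone (-0.0287 and -0.23 on the log2 scale), and GSTU24 lost its call under upper quartile factors (0.13). The replicate number as a block gave 56 higher and 4 lower at 0 against 22 °C, 46 and 6 at 10 against 22 °C, and 45 and 11 at 0 against 10 °C. Same-numbered libraries deviated together with a correlation over 0.1 in 4 of 18 pairs (-0.17 to 0.35, median -0.025), so the numbers were not taken as pairing. A count of 3 in a library corresponds to 0.072 to 0.0913 CPM, which limits levels such as those of GSTU12 and AT5G66780 at 22 °C.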
